A study of Drosophila melanogaster with 18 samples.

Results

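In the fat body of male feeding (L3F) Drosophila larvae, 47 genes had low transcript levels whenever M1BP RNAi was expressed, with or without vertebrate ZKSCAN3. The 47 genes were chosen by their own normalised read counts in the 8 male libraries. A gene was kept when all 4 libraries without RNAi held at least 5 CPM (counts scaled to library size with TMM factors) and the lowest of those 4 was at least 2 times the highest of the 4 libraries with RNAi. The rule was applied to 11808 of the 17494 genes in the count table, those with at least 10 counts in at least 2 libraries, and 5617 of them met the floor of 5 CPM, so that the 47 are 0.837% of those. The male genotypes, all in animals carrying the cgGal4 driver, were wild type (cgGal4>WT, here WT), cgGal4>M1BP-RNAi (M1BP RNAi), cgGal4>HA::ZKSCAN3 (ZKSCAN3) and cgGal4>M1BP-RNAi;HA::ZKSCAN3 (M1BP RNAi + ZKSCAN3), with 2 libraries each. The gonads had been removed, and the methods describe RNA pooled from several fat bodies. The methods name 1 RNAi line, give a myc tag for the fly transgenes where the labels give HA, and describe cgGal4 as specific to the fat body. Both RNAi genotypes carry the RNAi insertion and WT and ZKSCAN3 do not, so that knockdown of M1BP and the genetic background of that line cannot be told apart. The female libraries were from wild-type larvae without a transgene, feeding (L3F) or wandering (L3W), with 2 libraries each, and they did not enter the rule.

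M1BP is a zinc finger transcription factor that binds a core promoter element named Motif 1 and is known for its place at paused genes with housekeeping roles. ZKSCAN3 is a vertebrate zinc finger protein known as a repressor of autophagy genes. The larval fat body stores fat, glycogen and protein, makes the larval serum proteins and performs many reactions that in vertebrates take place in liver and adipose tissue. At the wandering stage larvae stop feeding under the influence of the steroid hormone ecdysone, and the fat body then starts to break down its own contents by autophagy.

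Total counts were 53462739 to 76798943 per male library and 58313885 to 74175081 per female library. M1BP itself had 15.7 and 17.0 CPM in WT, 13.2 and 15.1 in ZKSCAN3, 6.57 and 7.02 in M1BP RNAi and 8.26 and 8.53 in M1BP RNAi + ZKSCAN3, so the targeted transcript was lower in all 4 libraries with RNAi. Of 12 fat body markers 11 were matched, among them the larval serum proteins, and their summed level was 398851 to 440668 CPM in the WT and ZKSCAN3 libraries and 189692 to 302863 CPM in the 4 libraries with RNAi. Sums for other tissues also differed between libraries. The 10 salivary gland markers summed to 7.63 to 31.6 CPM without RNAi and 36.4 to 814 CPM with it. The 17 matched testis markers summed to 99.3 CPM in M1BP RNAi replicate 1 and to 3.36 to 20.1 CPM in the other 7 male libraries. The 9 matched hemocyte markers summed to 254 and 390 CPM in M1BP RNAi + ZKSCAN3 and to 1078 to 1726 CPM in the other male libraries. The midgut list ran from 197 to 533 CPM without RNAi and from 201 to 993 CPM with it, and the Malpighian tubule list from 175 to 445 and from 204 to 308 CPM. Imaginal disc and epidermis markers summed to 50.8 to 80 CPM without RNAi and 52 to 79.7 CPM with it, and neuron markers to 417 to 471 and 305 to 427 CPM. The part of these tissues in the levels of the 47 genes was not tested. In whole tissue, fewer cells of a type and less RNA per cell cannot be told apart.

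**Figure D1:**
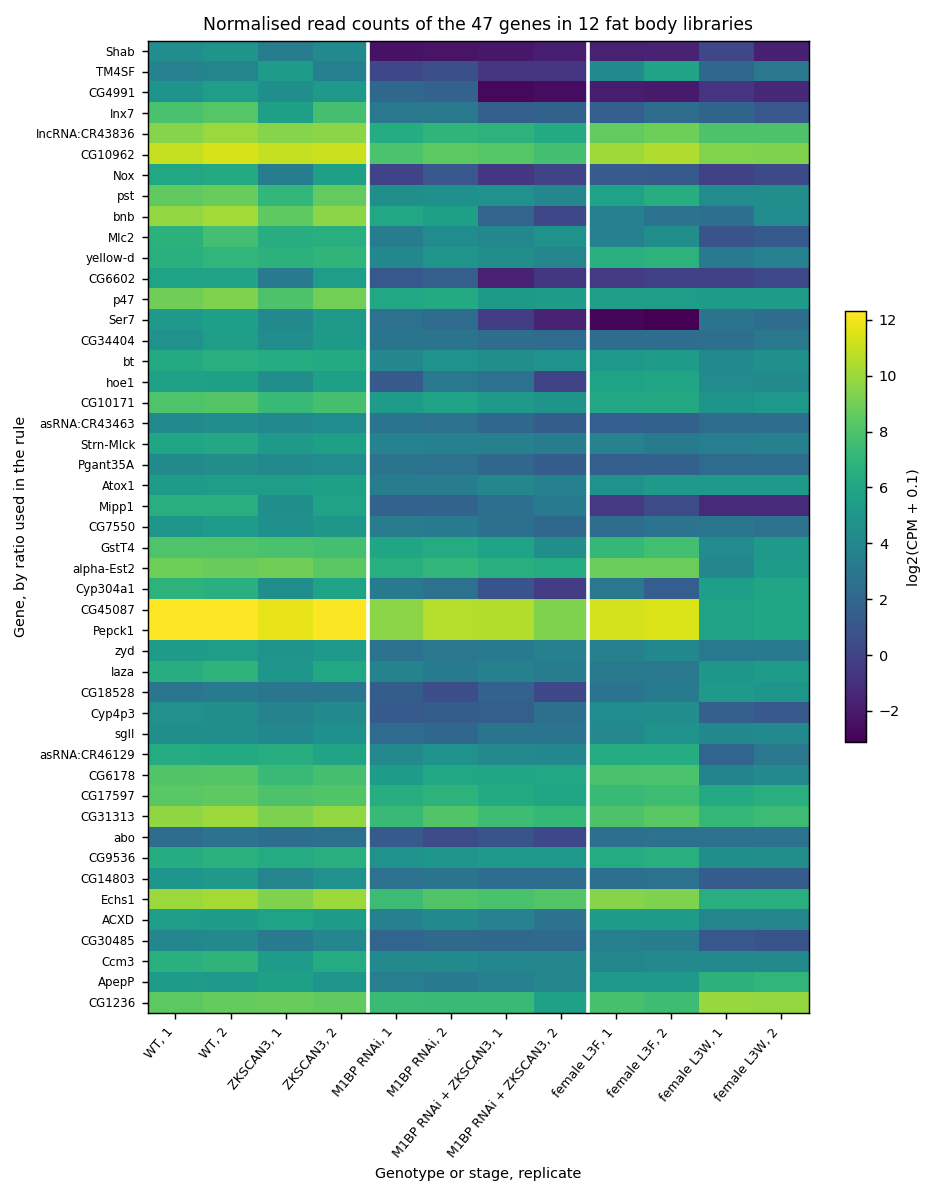
Level of each of the 47 genes (vertical axis, ordered by the ratio used in the rule) in the 12 fat body libraries (horizontal axis, genotype or stage and replicate number), as colour on the scale log2(CPM + 0.1). White lines separate the 4 libraries without RNAi, the 4 with RNAi and the 4 female libraries. The second block is darker than the first in every row because the rule asked for it, while the rule did not use the third block. Colour shows the absolute level, whereas the 20 genes low in female L3F are low relative to their own male values. They are therefore not always the darkest rows.

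The ratio of the lowest value without RNAi to the highest value with RNAi ran from 2.04 to 55.6, with a median of 2.45. The mean of the 4 libraries without RNAi was 2.81 to 162 times the mean of the 4 with RNAi, with a median of 4.5. These values chose the genes and are given as a description. Just inside the limit of 2 were CG1236 (ratio 2.04) and ApepP (2.06). Just outside it were PCB, which encodes pyruvate carboxylase, and nAChRbeta3, an acetylcholine receptor subunit, both at 1.99. At the floor, abo (lowest value 5.05 CPM) and CG18528 (7.44 CPM) were inside, and CG8908 (4.29 CPM) and the carbonic anhydrase gene CAH9 (3.89 CPM) were outside. Scaling matters here: TMM factors were 0.812 to 0.865 without RNAi and 1.07 to 1.3 with RNAi, which is a mean shift of 0.47 on the log2 scale relative to plain library totals. With library totals all 47 genes still had their highest value with RNAi under their lowest value without it, but the median fold was 3.28 and only 17 met the rule. Leaving ZKSCAN3 replicate 1 out of the rule gave 143 genes, all 47 among them, and leaving out M1BP RNAi replicate 2 gave 71.

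The largest ratio was that of Shab (3L:2895017-2959579, plus strand), which encodes a voltage-gated potassium channel. It had 21.6 and 29.3 CPM in WT and 10.2 and 19.1 in ZKSCAN3, against 0.0908 and 0.0971 in M1BP RNAi and 0.125 and 0.183 in M1BP RNAi + ZKSCAN3. These last 4 values rest on 6, 8, 9 and 18 reads, so Shab was close to undetected in every library with RNAi. Inx7 (X:6991612-6993612, minus strand), an innexin subunit of gap junction channels, had 234 and 305 CPM in WT, 49.4 and 217 in ZKSCAN3, 8.35 and 8.18 in M1BP RNAi and 2.85 and 3.11 in M1BP RNAi + ZKSCAN3. It was the only one of the 6 innexin genes listed by symbol (ogre and those starting with Inx) that met the rule, and 4 of the 6 met its floor. Nox (2R:16307269-16316485), an NADPH oxidase that makes reactive oxygen species, had 70.9 and 77.8 CPM in WT, 10.7 and 49.9 in ZKSCAN3, and 0.515 to 1.95 in the 4 libraries with RNAi. Replicates of ZKSCAN3 differed more for Inx7 and Nox than those of any other genotype. TM4SF, of the tetraspanin family of membrane proteins, had 13 and 15.2 CPM in WT, 39.9 and 11.7 in ZKSCAN3, 1.07 and 1.47 in M1BP RNAi and 0.529 and 0.519 in M1BP RNAi + ZKSCAN3. A further transporter was zyd, a sodium, potassium and calcium exchanger, with 28.7 to 44.7 CPM without RNAi and 6.29 to 12 with it.

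**Figure D2:**
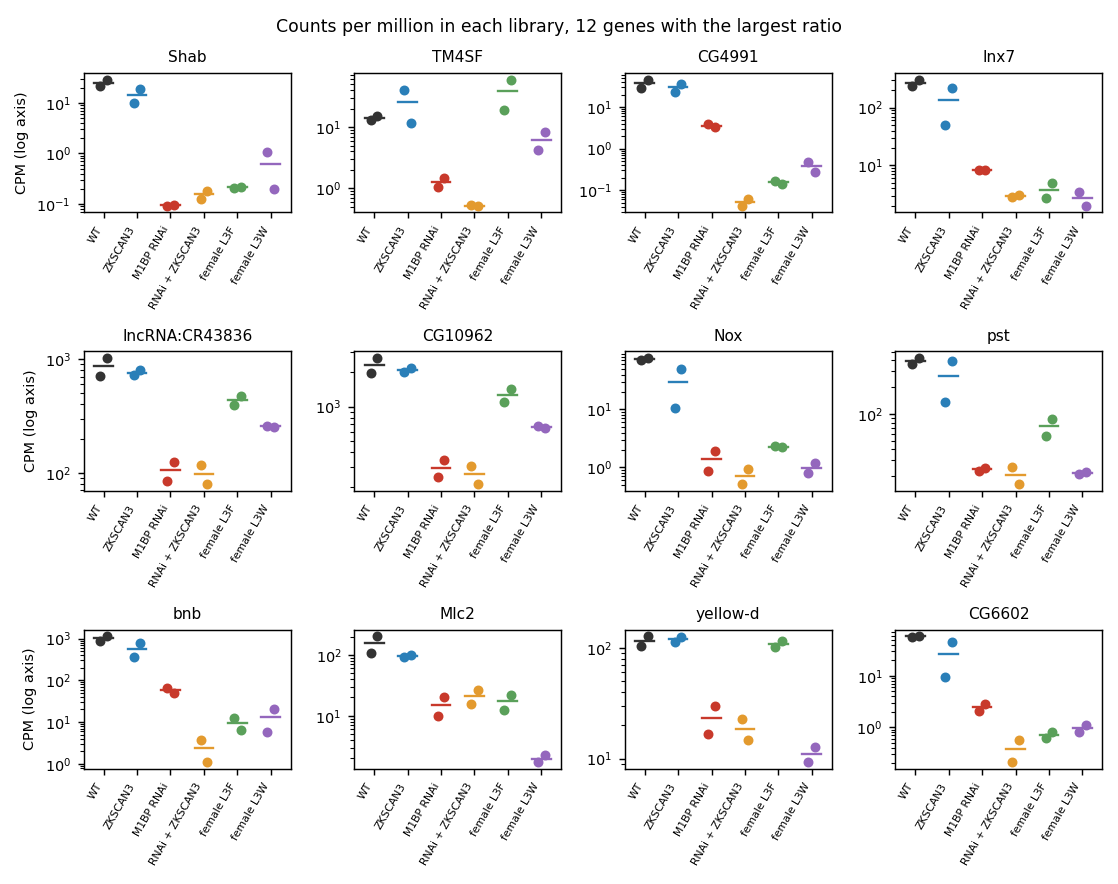
CPM on a log axis in each library for the 12 genes with the largest ratio in the rule, 1 panel per gene. Points are the 2 replicates of each group and lines are their means, and RNAi + ZKSCAN3 stands for M1BP RNAi + ZKSCAN3. Shab lies between 0.0908 and 0.183 CPM in the libraries with RNAi and at 0.21 and 0.215 CPM in female L3F, whereas yellow-d is at 102 and 116 CPM in female L3F.

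Among the most abundant members were genes of energy metabolism. Pepck1 (2R:18536767-18539416), phosphoenolpyruvate carboxykinase of gluconeogenesis, shares its exons and every count with CG45087, so the reads cannot be assigned to either. The shared value was 5064 and 4865 CPM in WT, 3603 and 4830 in ZKSCAN3, 795 and 1512 in M1BP RNAi and 1492 and 643 in M1BP RNAi + ZKSCAN3. As a ratio, the replicates of each RNAi genotype differed by more than those of WT or ZKSCAN3, and no RNAi library reached the level of a library without RNAi. Echs1, the mitochondrial enoyl-CoA hydratase of fatty acid oxidation, had 1016 and 1189 CPM in WT, 632 and 1008 in ZKSCAN3, 176 and 279 in M1BP RNAi and 238 and 290 in M1BP RNAi + ZKSCAN3. Its neighbour CG30485 lies on the opposite strand with a short overlap, and it had 9.7 to 19.2 CPM without RNAi and 3.68 to 4.48 with it. Strand was not used in the counting, so reads of the overlap count for both genes. The part of Echs1 reads in the level of CG30485 was not tested. CG6178, a fatty acyl-CoA synthetase related to beetle luciferase, had 158 to 286 CPM without RNAi and 40.5 to 68.5 with it. Smaller in level was sgll, the pyridoxine phosphate oxidase that makes the active form of vitamin B6, with 16.6 to 24.1 CPM without RNAi and 4.22 to 7.18 with it.

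Enzymes that modify foreign compounds and esters formed another group. GstT4, a theta class glutathione S-transferase, had 270 and 269 CPM in WT, 237 and 205 in ZKSCAN3, 64.1 and 83.5 in M1BP RNAi and 56.8 and 22.7 in M1BP RNAi + ZKSCAN3. The cytochrome P450 gene Cyp304a1 had 116 and 102 CPM in WT, 23.1 and 56.4 in ZKSCAN3, 9.65 and 6.1 in M1BP RNAi and 1.78 and 0.692 in M1BP RNAi + ZKSCAN3, which puts each genotype in a range of its own. Cyp4p3, a second P450 gene, had 13.8 to 25.9 CPM without RNAi and 2.25 to 5.88 with it. The esterase gene alpha-Est2 had 330 to 490 CPM without RNAi and 86.9 to 136 with it. Its end overlaps asRNA:CR46129 on the opposite strand, which followed the same pattern (60.2 to 90.8 and 16.8 to 26.1 CPM), and strand was not used in the counting, so reads of the overlap cannot be told apart. These were the only members from their families: 2 of 86 P450 genes and 1 of 35 glutathione S-transferase genes met the rule, of 40 and 25 that met its floor. None of the 60 gustatory receptor genes met the floor. None of the UDP-glycosyltransferase, lipid, amino acid and promoter factor genes listed met it, although 8, 20, 21 and 13 of them met the floor. Of 21 gluconeogenesis and carbohydrate genes, Pepck1 was the member, and 12 met the floor.

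3 genes of muscle proteins were members. Mlc2, the regulatory light chain of muscle myosin, had 109 and 205 CPM in WT, 91.5 and 98.5 in ZKSCAN3, 10.0 and 20.5 in M1BP RNAi and 15.8 and 26.2 in M1BP RNAi + ZKSCAN3. The gene bt, for the giant protein projectin, had 77.7 to 97.6 CPM without RNAi and 16.1 to 27.1 with it, and Strn-Mlck, of the same family of giant muscle proteins, 35.0 to 71.8 and 10.3 to 13.1. Other muscle transcripts followed the same order. The 9 further muscle markers, myosin heavy chain and actins among them, summed to 152 to 218 CPM without RNAi and 51.5 to 106 with it, and 7 of the 9 had every value with RNAi under every value without it. That was so for 15.7% of the 5617 genes that met the floor. No marker of the list was under 1 CPM in all libraries, and the part of muscle RNA in these 3 genes was not tested.

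Of the members with other or unstated roles, bnb was at 887 and 1158 CPM in WT, 357 and 780 in ZKSCAN3, 67.1 and 49.2 in M1BP RNAi and only 3.62 and 1.08 in M1BP RNAi + ZKSCAN3. The gene pst (pastrel), known for resistance to Drosophila C virus, had 364 and 428 CPM in WT, 136 and 394 in ZKSCAN3 and 16.2 to 25.3 with RNAi. CG10962 and lncRNA:CR43836 share exons on the X chromosome. CG10962 had 1946 to 2665 CPM without RNAi and 211 to 344 with it, and it was the most abundant member per length in WT (3259 TPM, which is CPM corrected for exon length, against a median of 68.8 TPM over the 47). The gene p47, a cofactor of the p97 ATPase, had 252 to 640 CPM without RNAi and 39 to 78 with it. CG31313 had 610 to 1049 CPM without RNAi and 142 to 275 with it, yellow-d, of the yellow protein family, 103 to 128 and 14.7 to 29.9, and CG6602 9.68 to 59.5 and 0.209 to 2.83. Pgant35A, a transferase that starts mucin-type sugar chains, and asRNA:CR43463 lie on opposite strands of 1 stretch with nearly equal counts (18.3 to 22.1 CPM without RNAi and 2.61 to 6.91 with it). Together the 47 genes form 42 separate loci, since 5 pairs share exons. They also include CG4991, Ser7, CG34404, hoe1, CG10171, Atox1, Mipp1, CG7550, laza, CG18528, CG17597, abo, CG9536, CG14803, ACXD, Ccm3, ApepP and CG1236. By type 44 are protein-coding and 3 are noncoding. They were spread over the arms much as the genes that met the floor were, with 19.1% on the X against 17.5%.

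The methods give a false discovery rate (FDR) threshold of 0.001 for DESeq2. Here it was applied to another test, the quasi-likelihood test of edgeR, adjusted over 11723 genes by Benjamini-Hochberg. By that test 0 of the 47 were called lower in M1BP RNAi against WT (0% of all genes). In M1BP RNAi + ZKSCAN3 against WT it was also 0 (0%). All 47 had an unadjusted p under 0.05 in both. At FDR 0.05 the same test called 41 in the first (4.29% of all genes) and 42 in the second (3.02%), and DESeq2 at FDR 0.001 called 43 (3.49% of all genes fitted) and 45 (2.48%). The rule used these contrasts, and nothing is read from the counts. The median log2 fold change of the 47 was -2.37 and -2.63.

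A large share of the genes were also low in wild-type females that carried no RNAi. In both female L3F libraries 20 of the 47 were so low that the lowest male value without RNAi was at least 2 times theirs, which held for 2.88% of the 5617 genes that met the floor. The male values in this count are those the rule chose for being high, so the difference between these shares is in part set by the choice of genes, and it is given as a description. Shab had 0.21 and 0.215 CPM in female L3F, against 10.2 or more in the male libraries without RNAi. CG4991 had 0.165 and 0.144 CPM, against 28.9 and 45.8 in male WT. Inx7 had 2.7 and 4.97 CPM, Nox 2.34 and 2.23, and CG6602 0.63 and 0.804. The levels of these 5 genes in wild-type females were therefore near those of the male RNAi libraries rather than those of male WT. Ser7, a serine protease gene, had 36.3 and 47.2 CPM in male WT and 18.5 and 35.0 in ZKSCAN3, while its 0.03 and 0.0144 CPM in female L3F rest on 2 and 1 reads. Mipp1, an inositol polyphosphate phosphatase, had 94.4 and 92.9 CPM in male WT, 3.16 to 9.32 with RNAi, and 0.57 and 1.25 in female L3F. The gene bnb had 12.2 and 6.53 CPM in female L3F, and p47 44.1 and 44.3. The others were Mlc2, CG34404, CG10171, asRNA:CR43463 with Pgant35A, Strn-Mlck, CG7550, Cyp304a1, laza, CG14803 and Ccm3. Among the other 27, yellow-d had 102 and 116 CPM, alpha-Est2 437 and 457, CG9536 84.2 and 99.0, and TM4SF 19.1 and 59.3. Over the 47 genes, 12 had both female L3F values at or above the lowest male value without RNAi, against 51.0% of the genes that met the floor. Muscle markers other than Mlc2 summed to 63.4 and 142 CPM in female L3F, and their part in the low values of Mlc2 and Strn-Mlck was not tested. The female L3F libraries differed between themselves in salivary gland markers (70.8 and 997 CPM) and midgut markers (1024 and 18.2 CPM). The tables were scaled separately, and females differed from males in sex, driver and genotype together. Only the male labels state that gonads were removed. These differences cannot be told apart. Scaling all 12 libraries in 1 step left the count at 20, and using only female L3F replicate 1 gave 24.

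**Figure D3:**
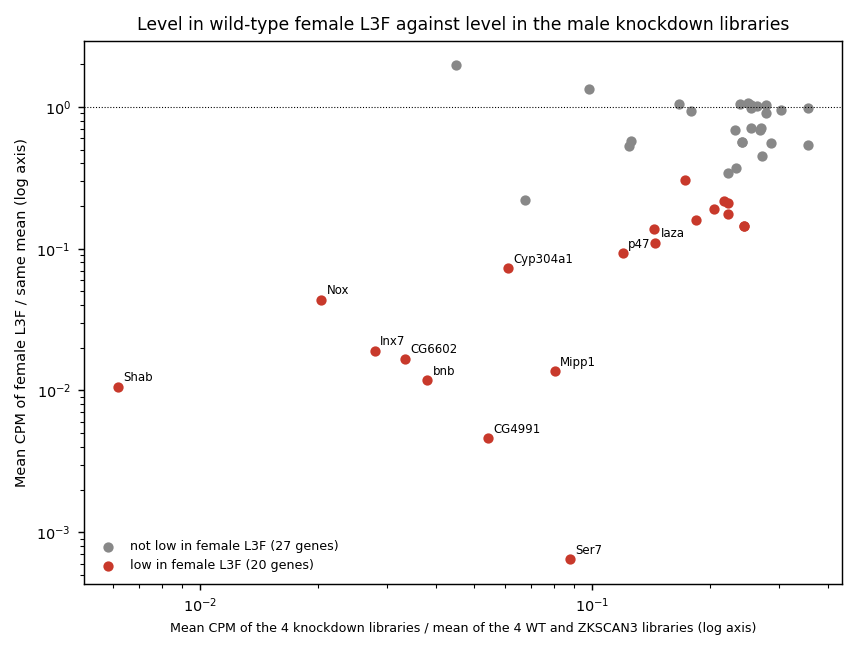
Each point is 1 of the 47 genes. The horizontal axis is its mean CPM in the 4 libraries with RNAi and the vertical axis its mean in female L3F, both divided by its mean in the 4 WT and ZKSCAN3 libraries, on log axes. Red points are the 20 genes low in female L3F and grey points the other 27. Both axes share a divisor, so the slope of the points is not a result, and Ser7 is lowest on the vertical axis with 3 reads in both female libraries together.

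Within the genotypes without RNAi, ZKSCAN3 replicate 1 stood apart for many of these genes. It was the lowest of the 4 values for 32 of the 47, against 40.9% of the genes that met the floor, and for 10 of the 47 each of the other 3 was at least 2 times as high, against 2.63%. ZKSCAN3 replicate 2 was as low as that for 0 of the 47. The 10 genes were Inx7, Nox, pst, bnb, CG6602, hoe1, Mipp1, Cyp304a1, laza and Ccm3. For example, CG6602 had 9.68 CPM in replicate 1 and 44.6 in replicate 2, and Mipp1 23.8 and 54.0. Mipp1 in replicate 1 therefore lay between its WT level of 94.4 and 92.9 and its RNAi level of 3.16 to 9.32. Of these 10 genes, 8 were among the 20 that were low in female L3F. The rule took the lowest of the 4 values without RNAi, so it limits how far 1 of them can lie below the rest, and these counts are descriptions of 1 library.

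The genes were also compared between ZKSCAN3 and WT. The rule did not set these genotypes against each other, but it used every value of both and asked each to be high. It therefore limited how low any of these values could be. The calls, signs and shares below come from the values that chose the genes and are given as descriptions. Whether ZKSCAN3 alone changed such genes cannot be decided from them. None passed FDR 0.001 by edgeR's quasi-likelihood test (0 of 47, and 0% of all genes lower) or by DESeq2. At an unadjusted p under 0.05 edgeR gave 8 lower and 0 higher, where 1.73% of all genes were lower. The log2 fold change was negative for 41 of the 47, with a median of -0.36 against -0.02 over all genes. Both ZKSCAN3 values were under both WT values for 23 of the 47, against 30.0% of the genes that met the floor, and 0 of the 47 had both above, against 11.7%. The size of this shift depended on which libraries were kept. Without ZKSCAN3 replicate 1 the median was -0.20, and without replicate 2 it was -0.65, against -0.02 over all genes in both fits. Without WT replicate 1 the median was -0.50, and without WT replicate 2 it was -0.27, against -0.02 and 0.02 over all genes.

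**Figure D4:**
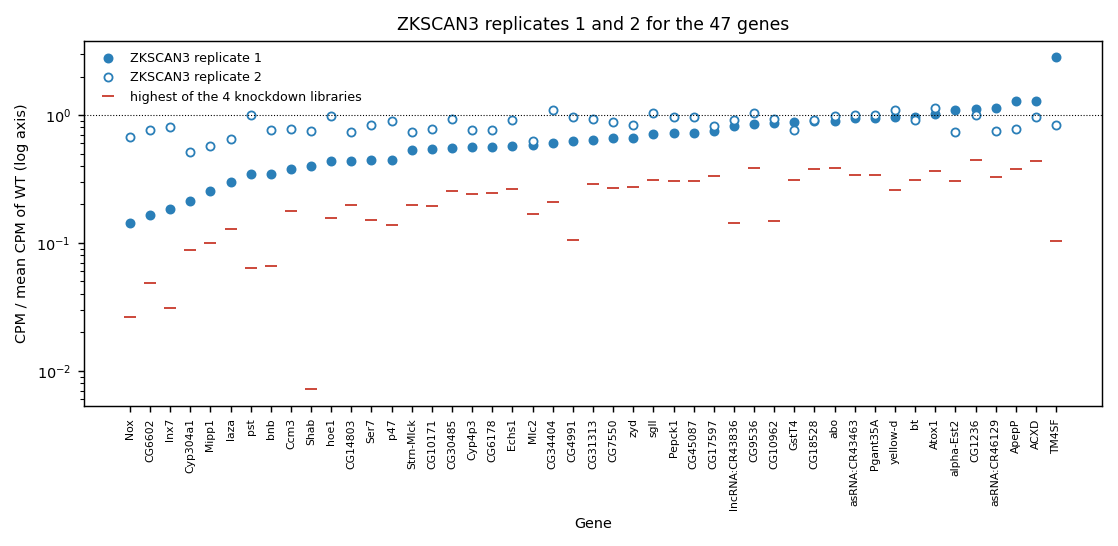
CPM of the 2 ZKSCAN3 libraries (filled circles replicate 1, open circles replicate 2) and of the highest library with RNAi (red bars), each divided by the mean of the WT libraries, on a log axis, for the 47 genes ordered by replicate 1. The dotted line marks the WT mean. In 10 genes the other libraries without RNAi were at least 2 times replicate 1, and the red bars lie below both replicates in every gene because of the rule.

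The RNAi genotypes were also compared with each other. By rule the lowest value without RNAi was at least 2 times every value of both. A gene raised past that limit in even 1 library was therefore left out. Rises were limited in size and falls were not, so the counts are descriptions. Whether adding ZKSCAN3 to M1BP RNAi raises such genes again was not tested. At FDR 0.001 edgeR's quasi-likelihood test called 0 of the 47 (0% of all genes lower). At an unadjusted p under 0.05 it gave 11 lower with ZKSCAN3, where 8.98% of all genes were lower, and 4 higher, where 8.97% were higher. DESeq2 at FDR 0.001 called 4 lower (0.728% of all genes fitted), which were CG4991, bnb, Ser7 and Cyp304a1. Both values with ZKSCAN3 were under both values of M1BP RNAi for 20 of the 47, against 26.4% of the genes that met the floor, and above both for 8, against 29.2%. The median log2 fold change was -0.32, against -0.08 over all genes. It was 0.0057 without M1BP RNAi + ZKSCAN3 replicate 2, with 24 genes higher and 23 lower, and -0.12 without M1BP RNAi replicate 2.

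CG4991 showed the largest of these differences. It had 3.95 and 3.23 CPM in M1BP RNAi (261 and 266 reads) and 0.0418 and 0.0611 CPM in M1BP RNAi + ZKSCAN3 (3 and 6 reads), a log2 fold change of -6.04 (SE 0.44, FDR 0.0108 by edgeR). Its ratio in reads was 67, with a 95% exact interval of 35 to 147 that covers counting error only. For bnb the log2 fold change was -4.64 (SE 0.7, FDR 0.0694 in the same edgeR test). Ser7 went from 6.35 and 4.77 CPM to 0.696 and 0.234 CPM, or -3.61 log2 units (SE 0.57, FDR 0.0708 in the edgeR test). The replicates of the genotypes did not overlap for these 3 genes, and none was past 0.001. The 3 were named for their p-values in this contrast. Of the genes that met the floor, 26.4% had both values with ZKSCAN3 under both without it, and 29.2% had both above. In the other direction, sgll went from 4.75 and 4.22 to 7.18 and 6.8 CPM (0.64 log2 units, SE 0.2, edgeR FDR 0.219). Atox1, a copper chaperone, went from 10.0 and 10.2 to 16.1 and 12.6 CPM (0.50 log2 units, SE 0.16, edgeR FDR 0.232), and Mipp1 from 3.16 and 3.34 to 5.49 and 9.32 CPM (1.19 log2 units, SE 0.42, edgeR FDR 0.251). M1BP transcripts were themselves at 6.57 and 7.02 CPM without ZKSCAN3 and 8.26 and 8.53 with it.

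In wild-type females, whose libraries the rule did not use, 12 of the 47 genes differed between wandering and feeding larvae at FDR 0.001 by edgeR's quasi-likelihood test over 10720 genes. The 9 lower at L3W stand beside 3.52% of all genes, and the 3 higher beside 4.27%. Among the 9, Pepck1 and CG45087 share every count, and Echs1 and CG30485 share exons. The 9, and so the 12, therefore come from fewer separate loci. The shared reads of Pepck1 and CG45087 fell most, from 2430 and 2740 CPM at L3F to 53.4 and 61.6 at L3W (log2 fold change -5.49, SE 0.15, edgeR FDR 0.000429). CG6178 fell from 236 and 243 at L3F to 14.3 and 17.6 at L3W (-3.91 log2 units, SE 0.14, edgeR FDR 0.000493), and yellow-d from 102 and 116 to 9.26 and 12.8 CPM (-3.30 log2 units, SE 0.21, edgeR FDR 0.00088). The other genes that fell were Cyp4p3, Echs1 with CG30485, CG9536 and ACXD, an adenylyl cyclase gene, by 1.43 to 3.05 on the log2 scale. All 9 were among the 27 genes that were not low in female L3F. That split was made with the same L3F libraries that are the baseline here, and a gene low at L3F has less room to fall. It is therefore given as a description.

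Ser7 rose from 2 and 1 reads at L3F to 420 and 389 reads at L3W, or 6.79 and 5.13 CPM (7.96 log2 units, SE 0.43, edgeR FDR 0.000698). The ratio in reads was 267, with a 95% exact interval of 91 to 1297. CG1236 rose from 224 and 184 to 961 and 938 CPM (2.22 log2 units, SE 0.13, edgeR FDR 0.000804), and ApepP, an aminopeptidase, from 36.9 and 37.6 to 112 and 129 CPM (1.69 log2 units, SE 0.11, edgeR FDR 0.000922). The last 2 genes had L3W levels above those in every male library. Among genes that did not pass 0.001, alpha-Est2 had 437 and 457 CPM at L3F and 16.4 and 41.3 at L3W (edgeR FDR 0.00527), and Cyp304a1 8.17 and 2.7 against 47.4 and 63.4 CPM (edgeR FDR 0.0135). Both L3W values were under both L3F values for 27 of the 47, against 46.7% of the genes that met the male floor, and above for 11, against 40.3%. The median log2 fold change was -0.80, against -0.01 over all genes. The calls rest on all 4 libraries: without L3F replicate 1 only Pepck1, CG45087 and Echs1 passed 0.001, and without L3F replicate 2, L3W replicate 1 or L3W replicate 2 none did. The fold changes of the 12 kept their direction in each case.

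**Figure D5:**
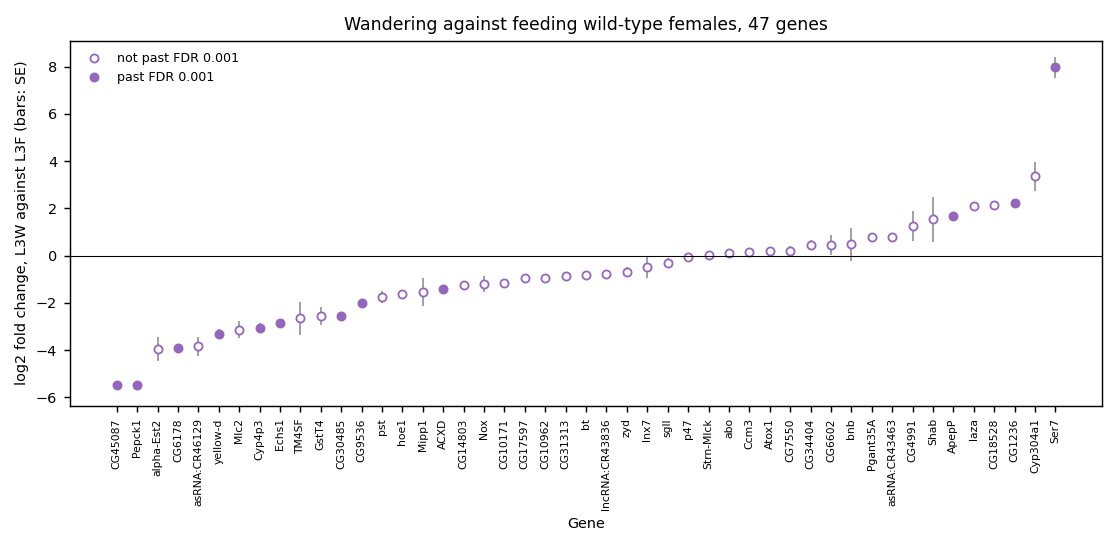
Log2 fold change of each of the 47 genes between L3W and L3F wild-type females, with bars for the SE of edgeR's fit. Filled circles passed FDR 0.001 and open circles did not. The filled circles run from -5.49 for Pepck1 and CG45087 to -1.43 for ACXD on the falling side, and from 1.69 for ApepP to 7.96 for Ser7 on the rising side.

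Some of the gene lists were counted in the same female test, with any members included. The lipid list held no member. Of 19 gluconeogenesis and carbohydrate genes tested, 9 fell and 0 rose at FDR 0.001, with a median log2 fold change of -1.41. Of 72 P450 genes 6 fell and 4 rose, and of 32 glutathione S-transferase genes 1 fell. Of 24 lipid genes 7 fell and 1 rose. In the male tests none of these lists had a gene past 0.001, and the counts at FDR 0.05, members included, stand beside 3.93% of all genes higher and 4.29% lower in M1BP RNAi against WT, and 3.23% higher and 3.02% lower in M1BP RNAi + ZKSCAN3 against WT. Of 78 P450 genes, 7 were higher and 7 lower in each of these contrasts. Of 20 carbohydrate genes, 3 were lower and 0 higher in the first, and 2 lower and 1 higher in the second. Of 29 lipid genes, 8 were lower in the first and 4 in the second, and 0 were higher in either. The L3W muscle markers without Mlc2 summed to 26.7 and 35.2 CPM, against 63.4 and 142 CPM at L3F, and Mlc2 had 1.71 and 2.23 against 12.3 and 22.2 CPM (edgeR FDR 0.00405).

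Whether the promoters of these genes are bound by ZKSCAN3 was looked at in ChIP-seq peaks of HA::ZKSCAN3 and HA::ZKSCAN4 from stably transfected S2 cells, an embryonic cell line, not fat body. A ZKSCAN3 peak lay within 500 bp of the start of 28 of the 47 genes (59.6%), against 83.9% of the genes that met the floor and 63.4% of all tested genes. For ZKSCAN4 it was 17 of 47 (36.2%), against 56.3% and 41.2%. Peaks of both factors were at 16 genes, ZKSCAN3 alone at 12, ZKSCAN4 alone at CG6178, and neither at 18. The members without a peak included Shab, Inx7, bnb, CG6602, Ser7, Mipp1, Cyp304a1 and yellow-d. Of the 20 genes low in female L3F, 11 had a ZKSCAN3 peak, and of the other 27 it was 17. The highest peak scores, whose unit is not given in the sources used here, were those of CG18528 (183, higher than or equal to 99.7% of the ZKSCAN3 peaks), Ccm3 (161, 97.5%) and sgll (156, 96.2%).

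Motif 1, searched as GGTCACACT on both strands from 250 bases before to 50 after the start, was in 3 of the 47 promoters (6.38%), against 10.6% of the genes that met the floor and 4.98% of all 17420 promoters. The 3 genes were p47, CG18528 and abo, a negative regulator of histone genes, and each had a ZKSCAN3 peak. A match describes letters, not a bound site. The stretches of CG18528 (3R:24360115-24360162, minus strand) and abo (2L:10975269-10975337, minus strand) are shown as examples of promoters that hold both the element of M1BP and a ZKSCAN3 peak. They are from the dm6 genome, 5′ to 3′ along the gene, with the motif in capitals.
CG18528: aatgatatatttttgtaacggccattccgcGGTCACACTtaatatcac
abo: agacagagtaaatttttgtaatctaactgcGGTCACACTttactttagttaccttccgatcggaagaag
In CG18528 the motif begins 12 bases after the start, and the centre of the ZKSCAN3 peak also lies 12 bases after the start. In abo it begins 14 bases before the start, inside a ZKSCAN3 peak of low score (27, higher than or equal to 12.1% of the peaks). The centre of this peak lies 832 bases after the start of abo, so the motif is near its edge. The DRE element (TATCGATA) was in 2 of the 47 promoters, against 15.1% of the genes that met the floor, and the TATA box letters (TATAAA) in 15 (31.9%), against 45.2%. The letters GATAAG, bound by GATA factors such as the fat body factor serpent, were in 12 (25.5%), against 21.1% of the genes that met the floor and 18.1% of all promoters.

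Inx7 and Mipp1, both without a ZKSCAN3 or ZKSCAN4 peak and both low in female L3F, held more than 1 match to GATAAG, and their stretches are shown for that reason. In capitals is GATAAG or its reverse complement CTTATC, in dm6 at X:6993718-6993786 and 3L:16573349-16573515, both on the minus strand.
Inx7: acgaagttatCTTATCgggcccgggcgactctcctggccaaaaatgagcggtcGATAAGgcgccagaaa
Mipp1: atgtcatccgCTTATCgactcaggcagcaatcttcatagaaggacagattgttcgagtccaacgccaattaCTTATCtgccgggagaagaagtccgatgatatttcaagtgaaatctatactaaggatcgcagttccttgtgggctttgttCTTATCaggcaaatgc
In Inx7 the matches begin 164 and 121 bases before the start, and in Mipp1 171, 110 and 30 bases before it. CG14803 also held more than 1 match.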

How the data were processed

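The RNA-seq data comprise 4 male L3F genotypes and 2 stages of wild-type females (fat body, 2 libraries per group), and the ChIP-seq peaks come from S2 cells. The authors aligned reads to dm6 with Subread and made the count tables with featureCounts 1.6.1, per the file headers without strand and with a read that overlaps several genes counted for each, so the deposited counts are raw and overlapping genes share reads. The score of each deposited peak comes from the authors' MACS2 calling with both replicates, and what it measures is not given in the sources used here. Groups were taken from the sample titles. For replicate 2 of the ZKSCAN3 ChIP the title gives ZKSCAN3 and the genotype label HA::ZKSCAN4, and only the merged peak lists were used. The ZKSCAN3 list held 8991 peaks, the number the paper gives before it removed regions bound by many factors. Nothing states that replicates were separate crosses, so p-values measure only the spread between these samples. Deposited columns of fold changes and adjusted p-values from the authors' own comparisons were not used.

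CPM used TMM factors within each table and TPM the exon lengths of the table. Counts were tested in R 4.3.3 with edgeR 4.0.16 (filterByExpr, quasi-likelihood test, Benjamini-Hochberg over all tested genes, FDR 0.001), all 8 male libraries in 1 fit and the 4 female libraries in another. Fold changes use a prior count of 0.125, and the SE is the absolute log2 fold change divided by the square root of F. Alternatives were DESeq2 1.42.0, other scalings, filters and thresholds, blocking on replicate number, and the omission of single libraries. The fits were tested on simulated data. With 2 libraries per group the precision is limited by their number, and intervals on reads cover counting error only.

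Gene symbols were matched for 17358 of 17494 genes, of which 17229 (99.26%) had the identical position in the annotation used. No promoter table was used: promoters were read from the RefSeq genome of the Release 6 assembly (dm6) around the most upstream start of each gene, for 17420 genes. Peaks were matched within 500 bp of that start, in Python 3.11.15.

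Named genes were M1BP, the 12 members with the largest ratio, the 8 with the highest WT CPM, members of the role lists, the 3 largest falls and rises past the threshold in L3W against L3F, the 3 differences with the smallest unadjusted p in each direction between the RNAi genotypes, the 2 genes on each side of both limits of the rule, and members that share reads. Any others were named after their values were seen. The members and all lists were chosen with earlier results of these data known.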

Additional observations from a re-analysis of the deposited data

How the results depend on the processing

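The number of genes that met the rule was 54 with DESeq2 size factors, 17 with library totals, 13 with a limit of 3 times in place of 2, 59 with a floor of 1 CPM and 43 with a floor of 10 CPM, and 47 to 143 over the rules that each omitted 1 library. Without M1BP RNAi replicate 1 and without either M1BP RNAi + ZKSCAN3 library, 46 of the 47 were found again, and without each of the other 5 libraries all 47. In M1BP RNAi against WT, where 0 members were called, the count was 41 at FDR 0.05, 43 with DESeq2, 46 with DESeq2 on the groups compared and 1 with all genes that have a count. The last 2 counts stand beside 890 of 15545 and 1 of 16082 genes lower. In M1BP RNAi + ZKSCAN3 against WT, with 0 called, these counts were 42, 45, 45 and 2, the last 2 beside 390 of 15128 and 2 of 16082 genes lower. In M1BP RNAi + ZKSCAN3 against M1BP RNAi, with 0 called, they were 1 at FDR 0.05, 4 with DESeq2 and 3 with DESeq2 on the groups compared. All these members were lower, beside 20 of 11723, 117 of 16082 and 77 of 15455 genes lower. Leaving out a library gave 0 members in all male contrasts, and a group left with a lone library is assumed to vary like the others. In L3W against L3F the 12 calls became 33 at FDR 0.05 (8 higher and 25 lower), where 2494 genes were higher and 2652 lower of 10720. With DESeq2 they became 29 (6 higher and 23 lower), where 1827 genes were higher and 1940 lower of 15046. How these calls depend on single libraries is given above. The causes were not tested. The higher-scoring peaks alone gave 16 of the 47 members with a ZKSCAN3 peak, against 62.9% of the genes that met the floor and 45% of all tested genes. For ZKSCAN4 they gave 10 members (21.3%), against 31.7% and 22.9%. A peak centre inside the promoter gave 20 members for ZKSCAN3 (42.6%), against 57.2% and 42.8%. It gave 11 for ZKSCAN4 (23.4%), against 36% and 26.3%. Allowing 1 mismatch in Motif 1 gave 10 members, where 25.3% of the genes that met the floor had a match. The genes given with a test were followed under the same alternatives: of 207 values, 143 stayed on the same side of the threshold, 57 lost it, 7 gained it and 0 changed direction.

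No label ties same-numbered samples to a shared animal or day, and the numbers were not taken to pair them. The correlation of deviations between same-numbered samples was -0.0199 to 0.34 among male groups, over 0.1 for 3 of 6 pairs of groups, and -0.00094 between the female stages. With a replicate block the L3W calls went from 12 to 0 and no other count of calls changed. Depth limits genes with a few reads, such as Ser7 at female L3F.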
